A study of Mus musculus with 6 samples.

Results

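Retinoic acid synthesis and response genes were described in cells from the surface of the cerebral cortex and from the skull of the adult mouse. The set held 9 of the 31053 genes in the feature tables, chosen by symbol alone: Rbp4, Stra6, Rdh10, Dhrs3, Aldh1a1, Aldh1a2, Aldh1a3, Crabp2 and Cyp26b1. Single-cell RNA-seq libraries (10x Genomics, 3′ tag counts) had been made from 2 preparations of C57BL6 mice aged 8 to 16 weeks, and the labels give no treatment or engineered allele for either. The cortical surface-associated (CSA) preparation gave 4 libraries of 6 to 10 pooled mice each, and the bone-associated (BA) preparation, which carries the dura, gave 2 libraries of 8 pooled mice each. Because animals were pooled and a library was the unit of replication, the p-values below measure the spread between libraries and not between animals.

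Retinol travels in blood bound to Rbp4 and enters some cells through the membrane receptor Stra6. Inside the cell it is oxidised in a reversible step to retinaldehyde, chiefly by Rdh10, while Dhrs3 reduces retinaldehyde back to retinol. The retinaldehyde dehydrogenases Aldh1a1, Aldh1a2 and Aldh1a3 then make retinoic acid, an irreversible step. Crabp2 carries retinoic acid to its nuclear receptors (the RAR and RXR families), and Cyp26b1 is a cytochrome P450 that breaks it down. In the developing head the meninges are a known source of retinoic acid for the underlying cortex, and Aldh1a2 is the enzyme usually used to mark them.

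After removal of poor-quality barcodes and predicted doublets, 8680 cells remained, 5272 from CSA and 3408 from BA, with a median of 5461 to 9525 UMIs (unique molecular identifiers, counted transcripts) per cell in each library. CSA3 and CSA4 stood apart from CSA1 and CSA2. Hemoglobin transcripts took 17.9% and 11.9% of the UMIs in their kept cells against 0.0985% to 0.526% in the other 4 libraries, and neither gave any vascular smooth muscle (VSMC)-like cell. Cells were clustered again and classes were named "-like" from marker genes, with all retinoid pathway genes kept out of both steps. The mesenchymal-like class, to which most results refer, held 265 CSA cells (78, 136, 29 and 22 in CSA1 to CSA4, median 7586 UMIs) and 284 BA cells (35 and 249 in BA1 and BA2, median 14872.5 UMIs).

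The labels were checked on known markers of the inner and outer meninges. In CSA mesenchymal-like cells the mean level was 1297 CPM (the usual unit of UMIs of a gene scaled to the same total in every class of every library) for Gjb6 and 809 for Slc22a6, markers of leptomeningeal (pia and arachnoid) cells, against 29.9 and 1.76 in BA mesenchymal-like cells. In the opposite direction, Matn4 stood at 699.8 CPM in BA and 0.600 in CSA, and H19 at 1144 and 6.21. These cells are called leptomeningeal and dural mesenchymal-like cells hereafter. Both leptomeningeal markers were uneven between the dural libraries. In BA1 and BA2, Gjb6 stood at 4.4 and 55.4 CPM and Slc22a6 at 0 and 3.52. Whether leptomeningeal cells were present among the dural cells of BA2 was not tested. Markers of other cells were also counted in both kinds of mesenchymal-like cells. The 7 border macrophage markers summed to between 33.1 and 386 CPM in the leptomeningeal cells of the 4 libraries and to 4.06 and 4.4 in the dural cells, and the 8 choroid plexus markers to between 329 and 462 and to 75.9 and 105. In the other direction the 7 VSMC markers summed to between 78.7 and 291 CPM in leptomeningeal cells and to 454 and 613 in dural cells, and the 8 endothelial markers to between 54.3 and 102 and to 97.6 and 268. The 5 pericyte markers gave 86.5 to 167 and 51.7 and 59.2. Erythroid markers (6) reached 72045 CPM in leptomeningeal cells of CSA3 and 3266 in CSA4, and no more than 38.7 in the other libraries. The part of these transcripts in the results below was not tested, but the comparisons that use CSA3 and CSA4 were repeated without them, except that with choroid plexus-like cells, which rests on these libraries alone.

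The 9 genes lie on 7 chromosomes of the mm10 build (GENCODE M21 gene models). Rbp4 spans chr19:38116629-38125281 on the minus strand and Stra6 chr9:58063788-58153996 on the plus strand. Rdh10 lies at chr1:16105774-16133734 and Dhrs3 at chr4:144892827-144928209, both on the plus strand. Aldh1a1 lies at chr19:20492715-20643465 (plus), Aldh1a2 at chr9:71215789-71296243 (plus) and Aldh1a3 at chr7:66390890-66427517 (minus). Crabp2 is at chr3:87948666-87953376 (plus) and Cyp26b1 at chr6:84571414-84593908 (minus). The model of Aldh1a1 overlaps that of C730002L08Rik, and that of Stra6 overlaps Ccdc33 and Gm16131. Strand was left out of this overlap, and whether reads in a shared stretch are uncertain between the genes was not tested.

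Promoter windows, from 250 bases before to 50 bases after each start site, were taken from RefSeq (GRCm38.p6) and were at hand for 6 of the 9 genes, with 13 windows between them (Aldh1a3, Rdh10 and Crabp2 had no entry). Retinoic acid receptors bind direct repeats of a short half-site, so the windows were searched on both strands for such repeats (DR1, DR2 and DR5, named for 1, 2 or 5 bases of spacing). DR5 was present in 32 of 32851 mouse windows (0.0974%), DR2 in 88 (0.268%) and DR1 in 73 (0.222%). None was present in the 13 windows of the set, which says only that these letters were not in those stretches. Among the 51 windows of the other pathway genes, DR5 stood in 2, those of the receptor gene Rarb and of Cyp26a1, a relative of Cyp26b1, DR1 in 1, that of the carotenoid-cleaving enzyme Bco1, and DR2 in 0. The DR5 windows are printed with the element in capitals because both genes recur in the results below. The element runs from base -53 to base -37 before the start site of Rarb, which lies on the minus strand at chr14:16575427-16575726, and from base -32 to base -16 in the plus-strand window of Cyp26a1 at chr19:37697558-37697857.
Rarb promoter window: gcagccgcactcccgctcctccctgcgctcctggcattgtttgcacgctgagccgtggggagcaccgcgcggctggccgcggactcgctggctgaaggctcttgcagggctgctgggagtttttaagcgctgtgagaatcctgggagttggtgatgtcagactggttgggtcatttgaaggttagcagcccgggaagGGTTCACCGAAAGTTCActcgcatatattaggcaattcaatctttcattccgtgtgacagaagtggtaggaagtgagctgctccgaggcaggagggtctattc
Cyp26a1 promoter window: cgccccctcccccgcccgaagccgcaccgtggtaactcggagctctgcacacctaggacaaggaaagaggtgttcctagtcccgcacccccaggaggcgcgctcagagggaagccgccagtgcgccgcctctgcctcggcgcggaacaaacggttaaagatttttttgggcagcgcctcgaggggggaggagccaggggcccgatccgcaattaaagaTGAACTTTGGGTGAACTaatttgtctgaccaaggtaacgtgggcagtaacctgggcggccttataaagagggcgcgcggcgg

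The TATA-box letters TATAAA, on either strand, stood in 2733 of the 32851 windows (8.32%) and in 2 of the 13 windows of the set, in one each of Rbp4 and Cyp26b1. Both windows are shown, with the match in capitals, as the only 2 of the set to hold a searched motif. In Rbp4 (chr19:38124762-38125061, minus strand) it runs from base -28 to base -23, and in Cyp26b1 (chr6:84593761-84594060, minus strand) from base -139 to base -134. A match describes the letters and is not evidence of binding.
Rbp4 promoter window: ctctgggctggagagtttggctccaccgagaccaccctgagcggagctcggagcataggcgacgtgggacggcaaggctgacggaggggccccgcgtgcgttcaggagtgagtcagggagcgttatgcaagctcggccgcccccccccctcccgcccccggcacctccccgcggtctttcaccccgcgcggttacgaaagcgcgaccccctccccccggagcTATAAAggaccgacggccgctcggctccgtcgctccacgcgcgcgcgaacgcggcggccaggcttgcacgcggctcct
Cyp26b1 promoter window: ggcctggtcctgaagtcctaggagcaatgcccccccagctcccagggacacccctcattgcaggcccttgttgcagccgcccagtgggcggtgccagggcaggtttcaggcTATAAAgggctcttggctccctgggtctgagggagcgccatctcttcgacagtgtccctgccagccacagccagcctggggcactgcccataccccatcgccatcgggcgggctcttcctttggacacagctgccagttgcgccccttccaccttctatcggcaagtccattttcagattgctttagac

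The genes differed in how many of their UMIs came from mesenchymal-like cells. That share was 89.1% for Crabp2 (670 UMIs over all kept cells), 86.3% for Aldh1a2 (1707), 76.0% for Rbp4 (179) and 50.8% for Aldh1a1 (1306). It was 33.6% for Aldh1a3 (143), 23.4% for Cyp26b1 (804), 22.9% for Rdh10 (615), 22.2% for Stra6 (198) and 12.6% for Dhrs3 (6765). Levels below are in CPM per class and library and are compared between classes and not between genes. A mean is over libraries with at least 10 cells of the class, and all orders of classes are descriptions.

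**Figure D1:**
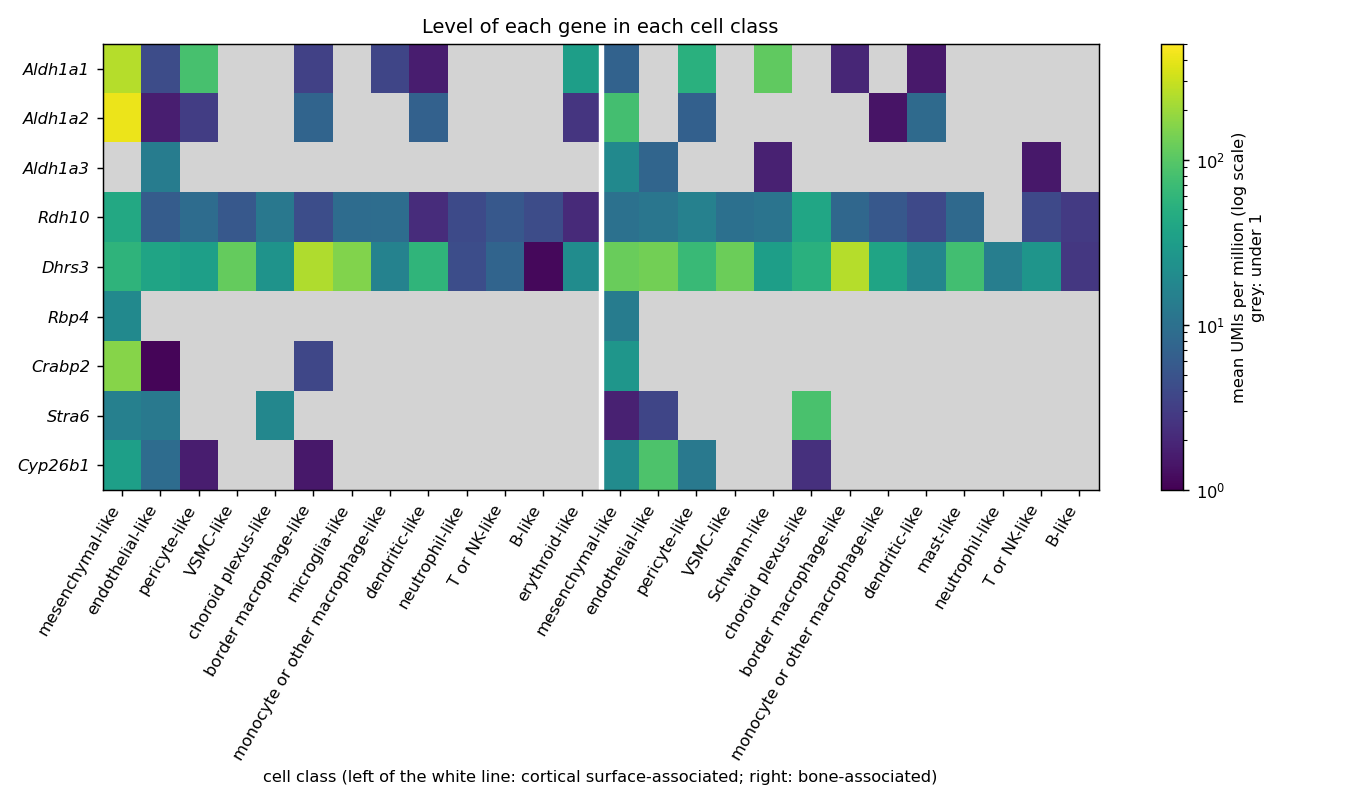
Mean level of the 9 genes (rows) in each cell class of the cortical surface and bone-associated preparations (columns), in CPM averaged over libraries on a log colour scale, with values under 1 in grey. Aldh1a2, Crabp2 and Rbp4 were highest in the mesenchymal-like columns of both preparations, Aldh1a1 in the CSA mesenchymal-like column and Dhrs3 in the border macrophage columns.

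Of the genes for retinol transport and uptake, Rbp4, the plasma carrier of retinol, was found among the named classes almost solely in mesenchymal-like cells. Another 42 of the 179 Rbp4 UMIs lay in cells that no class claimed. Rbp4 levels in the mesenchymal-like cells varied by library. In leptomeningeal cells it stood at 23.0, 18.1, 34.6 and 0 CPM in CSA1 to CSA4 (18.9 ± 14.4, SD, n = 4), and in dural cells at 3.30 and 24.1 (13.7 ± 14.7, n = 2). The 2 ranges overlapped. A single UMI was counted in CSA border macrophage-like cells and none in any other named class.

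Stra6, the retinol receptor, was highest in choroid plexus-like cells, an epithelium that exchanges solutes between blood and cerebrospinal fluid. It stood at 83.2 CPM in the single BA library with 10 or more such cells (71 UMIs in 13 cells) and at 20.5 and 14.8 in CSA3 and CSA4. Leptomeningeal cells followed at 13.2, 17.3, 0 and 29.5 CPM and CSA endothelial-like cells at 20.7, 9.93, 13.6 and 5.4 (12.4 ± 6.47, n = 4). These 3 CSA classes overlapped. Dural cells held 1.10 and 2.43 CPM.

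Rdh10, which oxidises retinol, had its highest CSA level in leptomeningeal cells, at 34.6, 44.4, 23.1 and 68.9 CPM (42.7 ± 19.5, n = 4). That range lay above the next CSA class, choroid plexus-like cells, at 10.3 and 13.9. Among BA cells the single choroid plexus library had 39.2, and the pericyte-like, endothelial-like and dural cells overlapped near 10 (dural 8.79 and 11.4).

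Dhrs3, which acts in the reverse direction, was spread over many classes. Border macrophage-like cells were highest at 269, 293, 193 and 197 CPM in CSA (238 ± 50.6, n = 4) and at 270 and 236 in BA. Microglia-like cells came next in CSA at 148, 184, 144 and 141, below every border macrophage value. In BA, endothelial-like cells (112 and 151), VSMC-like cells (124 ± 2.89, n = 2) and dural cells (71.5 and 168) overlapped. Leptomeningeal cells stood at 69.1, 87.3, 51.9 and 19.7 (57.0 ± 28.8, n = 4).

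Among the dehydrogenases that make retinoic acid, Aldh1a2 was highest in leptomeningeal cells, at 504, 472, 271 and 433 CPM in CSA1 to CSA4 (420 ± 103, n = 4). Dural cells held 47.3 and 110 (78.5 ± 44.2, n = 2), also the highest level in BA. No UMI was counted in T or NK-like cells of either preparation, in choroid plexus-like cells, or in BA endothelial-like and VSMC-like cells. Among other classes, BA dendritic-like cells held 8.54 on average, from 45 UMIs in 21 of 206 cells, and CSA border macrophage-like cells 13.5, 8.35, 3.39 and 4.06.

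Aldh1a1 was highest in leptomeningeal cells as well, at 245, 311, 202 and 236 CPM (248 ± 45.6, n = 4), but was also present in other classes. CSA pericyte-like cells held 120, 83.6, 49.2 and 71.5, with 216 of their 222 UMIs in a single cluster led by Colec11, and BA pericyte-like cells 45 and 59.1. Of the 58 BA UMIs, 39 lay in a cluster of 34 cells with Colec11 among its leading genes. A Ccl11-led cluster of 28 cells held 13, and the cluster of 75 cells with Abcc9 among its leading genes held 6. BA Schwann-like cells, the glia of peripheral nerves, held 122 and 95.4. Dural cells held 3.30 and 10.8, below both of those BA classes.

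Aldh1a3, the third dehydrogenase, followed neither of these patterns. CSA endothelial-like cells held 12.7, 10.6, 13.6 and 17.3 CPM (13.6 ± 2.80, n = 4), above every other CSA class. BA endothelial-like cells held 6.1 and 8.98, and dural cells, with 33.0 and 4.87, overlapped them. Leptomeningeal cells held no UMI in 265 cells, which allows a share of cells with a UMI of up to 1.13%.

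Crabp2, the carrier of retinoic acid to its receptors, was highest in mesenchymal-like cells of both preparations. Leptomeningeal cells held 198, 197, 127 and 128 CPM (162 ± 40.4, n = 4) and dural cells 5.50 and 47.3 (26.4 ± 29.6, n = 2). The next class in CSA, border macrophage-like cells, held 3.77 on average, and both preparations' mesenchymal ranges lay above all other classes.

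Cyp26b1, which removes retinoic acid, was highest in BA endothelial-like cells at 62.5 and 112 CPM (87.5 ± 35.3, n = 2). In CSA endothelial-like cells it stood at 3.19, 24.2, 5.45 and 3.24, with CSA2 apart from the other libraries. Leptomeningeal cells held 49.4, 54.2, 28.8 and 0 and dural cells 24.2 and 16, so the mesenchymal ranges overlapped.

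**Figure D2:**
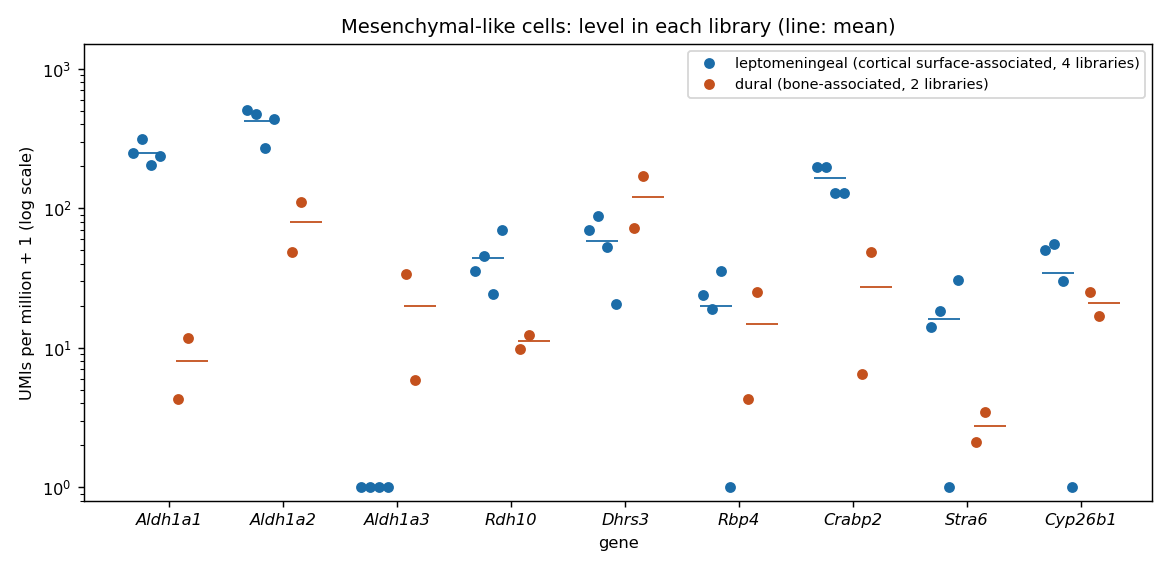
Level of each gene in mesenchymal-like cells, as CPM plus 1 on a log axis, with 1 point per library (4 CSA, 2 BA) and a line at the mean of each preparation. Every CSA point lies above both BA points for Aldh1a1, Aldh1a2, Crabp2 and Rdh10, whereas the points of Rbp4 and Cyp26b1 overlap.

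The central comparison set leptomeningeal against dural mesenchymal-like cells, to ask how the inner and outer meningeal cells of the adult differ in this pathway. Leptomeningeal cells came only from CSA and dural cells only from BA, so cell type and preparation cannot be told apart. Of the 9 genes, 5 passed the detection filter (detection in over 10% of cells on either side) and 4 of these were called higher in leptomeningeal cells, by edgeR's quasi-likelihood test at an adjusted p below 0.05 and a log2 fold change beyond 1.3. Over all 9629 genes tested, 13.4% were called, 5.19% higher and 8.24% lower. All 4 were detected in over 10% of cells on both sides, so neither side alone admitted them. The median log2 fold change was 2.42 over the 5 genes and -0.07 over all genes tested. Aldh1a1 differed most, with a log2 fold change of 4.95 ± 0.45 (SE, adjusted p = 3.86e-06, edgeR). Crabp2 was higher by 2.54 ± 0.56 (adjusted p = 0.00530), Aldh1a2 by 2.42 ± 0.39 (adjusted p = 0.000450) and Rdh10 by 1.99 ± 0.45 (adjusted p = 0.00601) on the log2 scale. In each of these 4 genes every CSA library lay above both BA libraries. Dhrs3, the enzyme of the reverse step, stood at -0.86 ± 0.42 and was not called (adjusted p = 0.221).

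With CSA1 and CSA2 as the only cortical surface libraries the 4 calls remained, at 5.08 for Aldh1a1, 2.74 for Crabp2, 2.61 for Aldh1a2 and 1.95 for Rdh10. Leaving out each library in turn gave 4.54 to 6.34 for Aldh1a1, 1.95 to 3.32 for Aldh1a2 and 1.82 to 2.33 for Rdh10, all called. The 2 dural libraries weighed on the other sizes. Without BA1 the log2 fold change of Crabp2 was 1.85, and without BA2 it was 5.06. Dhrs3 was at -1.32 without BA1 (adjusted p = 0.0122, called lower) and at 0.06 without BA2. With cells thinned to 1500 UMIs it was also called lower (-1.31, adjusted p = 0.0175).

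The other 4 genes did not pass the filter and were not tested, and their values are given as ratios of summed UMIs with 95% intervals for counting error only. Aldh1a3 had no UMI in leptomeningeal cells and 48 in dural cells, of which 25 came from 1 cell, at 33.0 CPM in BA1 and 4.87 in BA2, so no bound on the fold is given. Stra6 was 7.08-fold higher (3.42 to 16.1) and Cyp26b1 2.75-fold higher (2.04 to 3.72). For Rbp4 the ratio was 0.997 (0.679 to 1.44), although the mean over libraries was 18.9 against 13.7 CPM. With no filter, edgeR called Aldh1a3 lower (adjusted p = 4.48e-05) and Stra6 higher (2.75 ± 0.92 on the log2 scale, adjusted p = 0.0262), and called neither Cyp26b1 (1.05 ± 0.48, adjusted p = 0.170) nor Rbp4 (0.37 ± 0.58, adjusted p = 0.769).

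The dural cells fell into 2 clusters with different retinoid profiles. The larger, 192 cells led by Col6a5, Kcns1 and Ostn, held Aldh1a2 at 36.5 CPM when its cells were pooled, and the smaller, 92 cells led by Inmt, Hpca and Apod, held 216. Rbp4 was at 3.94 in the first and 51.2 in the second, and Rdh10 at 6.57 and 19.2. Crabp2 went the other way, at 44.7 and 28.1, as did Dhrs3, at 171 and 106. Without the Ostn-led cluster the leptomeningeal excess of Aldh1a2 was 1.28 on the log2 scale (adjusted p = 0.245) and that of Rdh10 1.22 (adjusted p = 0.204), so both calls were lost. Aldh1a1 and Crabp2 were still called, at 4.2 and 2.80.

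The Apod-led values came mostly from BA2, which gave 78 of the 92 cells. In BA1 that cluster held Aldh1a2 at 40.2 CPM, near the 56.8 of the BA1 Ostn-led cells, against 304 and 33.5 in BA2. Of the 41 Aldh1a3 UMIs in the Apod-led cluster, 25 came from a single cell, and 11 of its 92 cells had any. Clec3b and Lum were among the leading genes of both the Apod-led and the leptomeningeal cluster. Whether the dural markers hold in the Apod-led cluster alone was not tested.

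**Figure D3:**
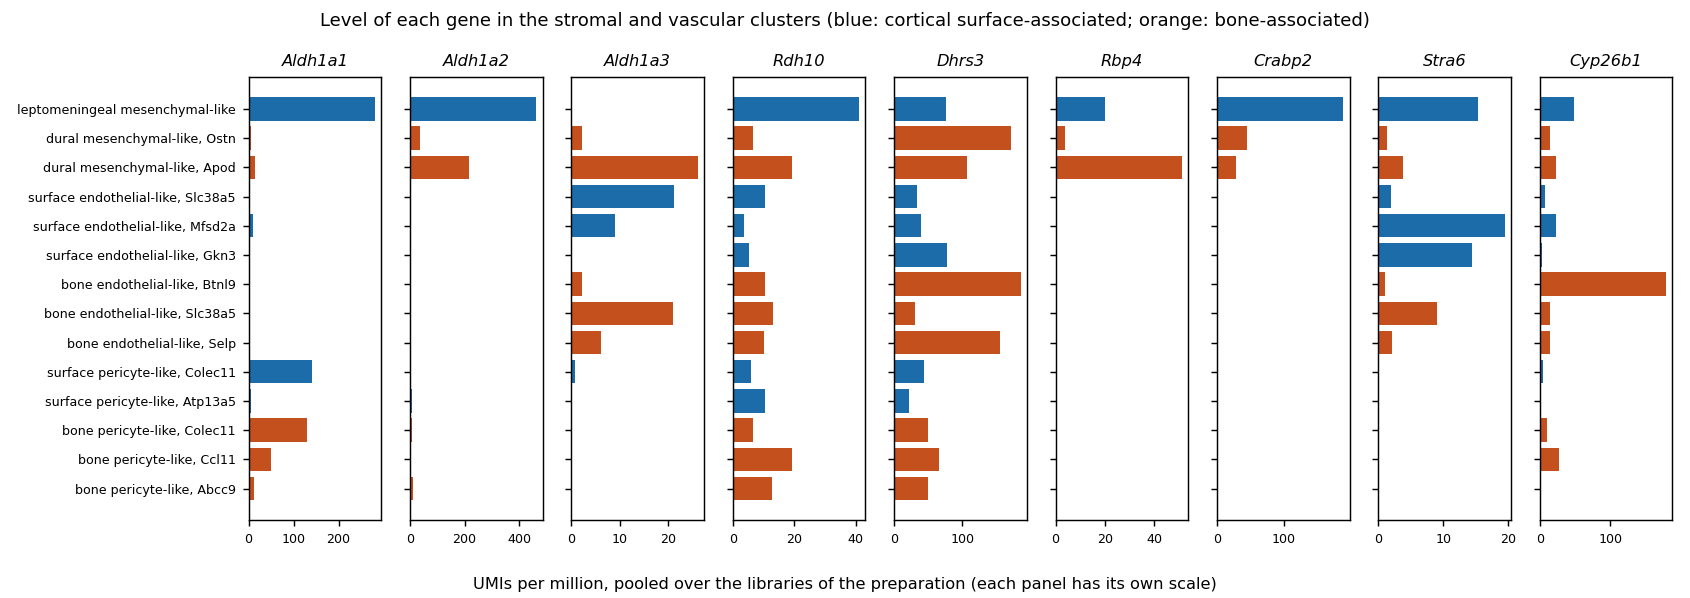
Level of each gene in the clusters of the mesenchymal-like, endothelial-like and pericyte-like classes, in CPM with cells pooled over libraries (bars from 0, a separate scale in each panel). Among the clusters drawn, the leptomeningeal cluster was highest for Aldh1a2, the Apod-led dural cluster for Rbp4 and the Btnl9-led endothelial cluster of BA for Cyp26b1.

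Endothelial-like cells, which line vessels, were compared between preparations next. The CSA class included a cluster of 79 cells with Gkn3 among its leading genes. A BA cluster of 149 cells, also led by Gkn3 and with 6 leading endothelial markers, was left unnamed and took no part. Dhrs3 and Cyp26b1 passed the filter and were called lower in CSA (in this comparison 6.80% of 7737 genes were called, 2.09% higher and 4.70% lower in CSA). Cyp26b1 was detected in 4.22% of CSA and 15.9% of BA endothelial-like cells, so it passed only through BA, where it is high, and the number of calls is no result. Cyp26b1, at the levels given above, had a log2 fold change of -2.90 ± 0.42 (adjusted p = 8.49e-05, edgeR), and of -4.51 without CSA2. Dhrs3, at 33.5, 57.1, 32.7 and 28.1 CPM in CSA1 to CSA4 and 112 and 151 in BA, had one of -1.72 ± 0.25 (adjusted p = 7.35e-05). Every CSA library lay below both BA libraries for each. Both calls remained with CSA1 and CSA2 alone, at -2.47 and -1.56. With no detection filter, Stra6 was called higher in CSA (1.66, adjusted p = 0.0331), as was Aldh1a1 (3.66, adjusted p = 0.0201, on 18 UMIs against 1).

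Within the endothelial-like class the genes were highest in different clusters, each named here by 1 of its 10 leading genes. Cyp26b1 was at 179 CPM in the Btnl9-led BA cluster (148 and 192 in the 2 libraries, with a UMI in 53 of 258 cells). In the CSA cluster led by Mfsd2a, the lipid transporter of brain endothelium, it was at 22.3, with 29 of 32 UMIs from CSA2. Aldh1a3 was highest in the Slc38a5-led clusters, at 21.4 in CSA and 21.2 in BA, against 9.07 in the Mfsd2a-led cluster. Stra6 was at 19.5 in the Mfsd2a-led cluster. In thinned cells, Dhrs3 was detected in 23.9% of the Btnl9-led, 20.9% of the Selp-led and 3.13% of the Slc38a5-led BA cluster. The CSA shares were 3.95% in the Slc38a5-led, 5.12% in the Mfsd2a-led and 13.3% in the Gkn3-led cluster. For the Slc38a5-led clusters the exact intervals of these thinned shares overlapped (0.649 to 8.86 in BA and 1.82 to 7.36 in CSA). With all UMIs their Dhrs3 shares were 24.7% in BA and 17.0% in CSA. Slc38a5 was the only leading gene they shared, and whether they hold the same cell type was not tested. The Dhrs3 call compares whole classes. The makeup of the endothelial-like class by cluster differed between the preparations. Both calls remained without the Gkn3-led CSA cluster, and the part of the makeup as a whole in the 2 calls was not tested.

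In pericyte-like cells neither of the 2 genes tested was called (6.57% of 7378 genes were, 1.44% higher and 5.14% lower). Aldh1a1 differed by 0.43 ± 0.31 on the log2 scale (adjusted p = 0.512) and Dhrs3 by -0.94 ± 0.34 (adjusted p = 0.118). Inside the class Aldh1a1 stood at 140 CPM in the Colec11-led CSA cluster (251 cells, 94.1 to 170 over the 4 libraries) and at 130 in the BA cluster of 34 cells that also had Colec11 among its leading genes. In the Atp13a5-led CSA cluster of 245 cells it was at 5.64 (0 to 8.20 over the 4 libraries). In VSMC-like cells, which CSA1 and CSA2 alone supplied for CSA, only Dhrs3 was tested and it was not called (-0.22 ± 0.25, adjusted p = 0.732, with 6.39% of 8320 genes called, 2.30% higher and 4.10% lower).

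**Figure D4:**
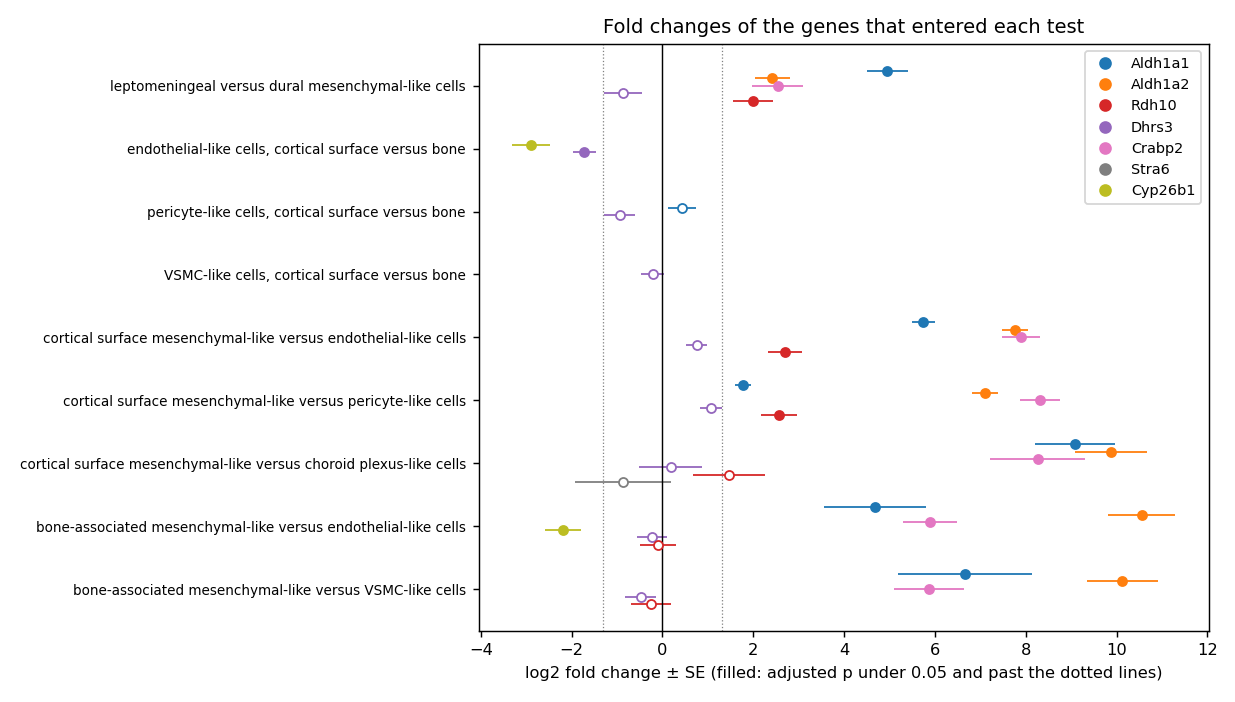
Log2 fold change ± SE (edgeR) of each tested gene in the comparisons between preparations and between classes, with filled points for calls and dotted lines at ±1.3. In the comparisons with other classes, Aldh1a1, Aldh1a2 and Crabp2 lay on the side of mesenchymal-like cells. They passed the detection filter only through these cells, where they are high, except Aldh1a1 against pericyte-like cells. The number of their calls is therefore no result. Where the other class held no UMI the plotted size depends on the prior count of the fit.

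Mesenchymal-like cells were then set against the other classes of their own preparation, with the library as a block. Several of the genes passed the detection filter only through mesenchymal-like cells, where they are high, so the number called is given for no comparison here and each gene is read on its own. That held for Aldh1a1, Aldh1a2, Crabp2 and Rdh10 against CSA endothelial-like cells, where they were detected in 0.367% to 3.30% of cells. All were called higher in leptomeningeal cells (27.1% of 8410 genes were called, 13.3% higher and 13.7% lower). Aldh1a2 was higher by 7.76 ± 0.29, Aldh1a1 by 5.75 ± 0.26 and Rdh10 by 2.69 ± 0.37 on the log2 scale. Crabp2, with 417 UMIs against 2, gave a ratio of 333 (95% counting interval 91.6 to 2758). Dhrs3 passed the p threshold but not the fold (0.75 ± 0.24, adjusted p = 0.00868). Untested, Aldh1a3 was at least 9.60-fold lower in leptomeningeal cells (a count of 0 set at a floor of 3 counts), Rbp4 at least 23.4-fold higher, Cyp26b1 3.71-fold higher (2.61 to 5.37) and Stra6 1.39-fold (0.852 to 2.26).

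Against CSA pericyte-like cells the same genes were called higher (19.5% of 8018 genes were called, 10.6% higher and 8.93% lower), and of these only Aldh1a1 passed the filter through pericyte-like cells as well. Aldh1a2 was higher by 7.10 ± 0.29 on the log2 scale and Rdh10 by 2.57 ± 0.40. Aldh1a1 was higher by 1.78 ± 0.17 (adjusted p = 2.32e-15, edgeR) over the whole class, in which the Colec11-led cluster held 216 of the 222 UMIs. Against CSA choroid plexus-like cells, which only CSA3 and CSA4 supplied, 40.0% of 8575 genes were called, 19.8% higher and 20.2% lower. Aldh1a2 was called at least 144-fold higher, Aldh1a1 at least 93.1-fold and Crabp2 at least 55.2-fold, each against 0 UMIs in choroid plexus-like cells. This fit had 1 residual degree of freedom, with 29 and 22 leptomeningeal cells in CSA3 and CSA4. Rdh10 (1.47 ± 0.79), Dhrs3 (0.18 ± 0.69) and Stra6 (-0.87 ± 1.06) were not called.

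In BA, dural cells were set against endothelial-like cells (24.5% of 9916 genes were called, 13.5% higher and 11.0% lower). Aldh1a1, Aldh1a2 and Crabp2 passed the filter only through dural cells and Cyp26b1 only through endothelial-like cells. Aldh1a2 was called at least 126-fold higher. Crabp2 was called higher with a ratio of 75.7 (20.6 to 630) on 2 endothelial UMIs, and Aldh1a1 with a ratio of 36.2 (6.15 to 1461) on a single one. Cyp26b1 was called lower in dural cells (-2.19 ± 0.40, adjusted p = 0.00823, edgeR). Rdh10 (-0.10 ± 0.39) and Dhrs3 (-0.23 ± 0.32) were not called. Against VSMC-like cells 25.7% of 9805 genes were called, 15.1% higher and 10.6% lower, and the same 3 genes again passed only through dural cells. Aldh1a2 was called at least 106-fold higher and Aldh1a1 at least 10.1-fold, and Crabp2 had a ratio of 127 (22.5 to 5043). These BA fits had 1 residual degree of freedom, and DESeq2 did not call Aldh1a1 or Aldh1a2 in either (adjusted p between 0.105 and 0.230).

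Shares of cells with at least 1 UMI were set beside those of T or NK-like cells, as the background that free RNA can give. The CSA T or NK-like cells numbered 38, 31, 166 and 307 in CSA1 to CSA4, and the leptomeningeal cells 78, 136, 29 and 22. The CSA background therefore speaks mostly for CSA3 and CSA4, and the leptomeningeal shares mostly for CSA1 and CSA2. Aldh1a2 was detected in 82.3% of leptomeningeal cells (218 of 265, 95% exact interval 77.1 to 86.7) and in 31.0% of dural cells (25.7 to 36.7), against 0 of 542 and 0 of 604 T or NK-like cells, which allows up to 0.554% and 0.497%. Aldh1a1 was detected in 69.1% of leptomeningeal (63.1 to 74.6) and 12.3% of dural cells, and Crabp2 in 50.2% and 16.2%. Because dural cells were deeper (median 14872.5 against 7586 UMIs), each cell was also thinned to 1500 UMIs, which left out 12 leptomeningeal and 3 dural cells. Thinned shares were 46.6% and 10.3% for Aldh1a2, 30.8% and 2.85% for Aldh1a1, and 17.4% and 3.91% for Crabp2. Dhrs3 went the other way, in 34.0% of leptomeningeal and 72.2% of dural cells, and in 9.88% and 23.1% after thinning. The share for Dhrs3 in T or NK-like cells was 3.51% in CSA and 12.1% in BA.

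The remaining genes were detected in few cells of either kind. Rdh10 was found in 20.8% of leptomeningeal and 13.4% of dural cells (4.74% and 1.78% thinned), Cyp26b1 in 9.06% and 6.69%, Stra6 in 7.17% and 3.17% and Rbp4 in 6.04% and 8.80%. For Aldh1a3 the shares were 0 and 4.93% (14 of 284 cells).

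**Figure D5:**
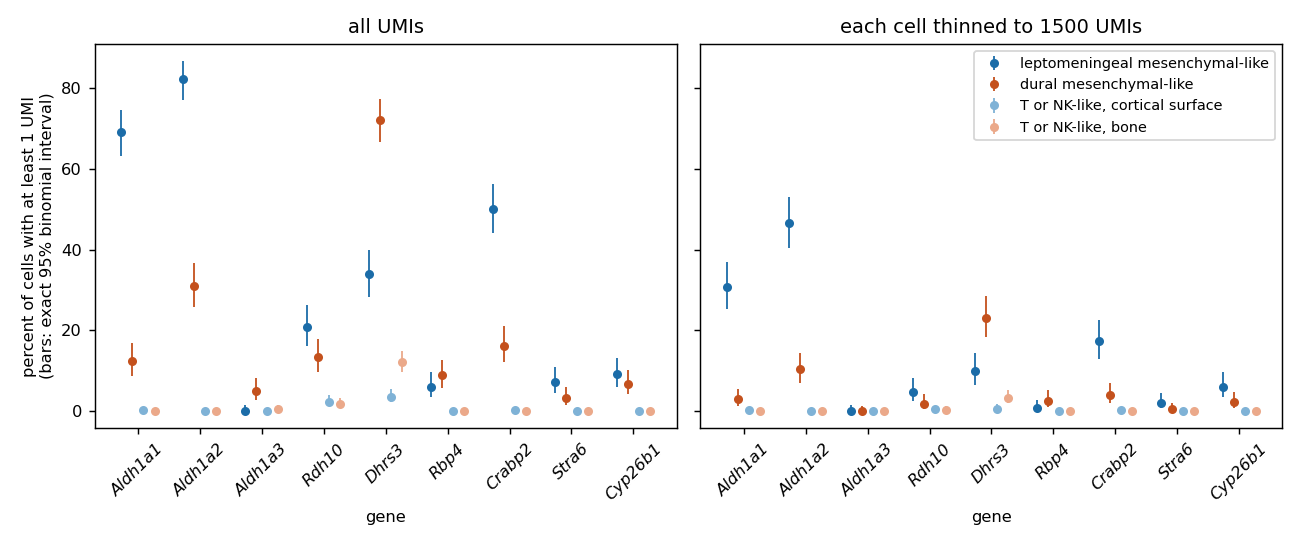
Percent of mesenchymal-like and T or NK-like cells of each preparation with at least 1 UMI of each gene, with exact 95% binomial intervals (counting error only), for all UMIs (left) and after thinning each cell to 1500 UMIs (right). The leptomeningeal share of Aldh1a2 was 82.3% before and 46.6% after thinning, above the dural share in both panels.

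Joint detection in single cells was set beside the product of the separate shares, which is what independent detection would give. Aldh1a1 and Aldh1a2 were both detected in 168 of 265 cells (63.4%, product 56.8%). Aldh1a2 and Crabp2 were both detected in 114 (43.0%, product 41.3%) and Aldh1a1 and Crabp2 in 89 (33.6%, product 34.7%). After thinning, Aldh1a1 and Aldh1a2 shared 37 of 253 cells (14.6%, product 14.4%). Among dural cells Aldh1a2 and Crabp2 were both detected in 7 of 284 (2.46%, product 5.02%), and Aldh1a1 and Aldh1a2 in 10 (3.52%, product 3.82%).

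A list of 47 further genes of retinoid uptake, storage, oxidation, breakdown, nuclear reception and known induction was described in the same fits. Between leptomeningeal and dural cells 23 were tested, 2 were called higher and 3 lower (5.19% and 8.24% of all genes tested), with a median log2 fold change of -0.11. The higher ones were both nuclear receptors. Nr2f1, an orphan receptor induced by retinoic acid, stood at 331, 340, 323 and 226 CPM in CSA1 to CSA4 and at 134 and 92.8 in BA (1.54 ± 0.30, adjusted p = 0.00211, edgeR), and its call was lost in 3 of 19 alternative settings (0.86, adjusted p = 0.185, without the Ostn-led cluster). Rarb, the retinoic acid receptor whose DR5-bearing window is printed above, stood at 41.2, 27.1, 40.3 and 49.2 against 9.90 and 17.6 (1.36 ± 0.44, adjusted p = 0.0482), and its call was lost in 16 of 18.

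The lower ones were a pair of receptors and a fatty-acid binding protein. Rarg, another retinoic acid receptor, stood at 11.5, 30.9, 11.5 and 0 in leptomeningeal cells and at 42.9 and 76.3 in dural cells (-1.63 ± 0.51, adjusted p = 0.0421). Its call was lost in 7 of 19 settings, among them without CSA1, CSA3, CSA4 or BA2 (-0.93, adjusted p = 0.267, without BA2), with CSA1 and CSA2 alone and without the Ostn-led cluster (adjusted p = 0.434). The retinoid X receptor Rxrg had no UMI in leptomeningeal cells and 51 in dural cells, at least 8.16-fold lower. Rxrg passed the detection filter only through dural cells, where it is high, so the number of listed genes called is no result. Its call was lost without CSA2 (adjusted p = 0.0521, edgeR). Fabp5, a lipid carrier that can also bind retinoic acid, was called lower (-2.59 ± 0.75, adjusted p = 0.0297), with 249.5 CPM in BA1 and 19.7 in BA2, and lost the call in 11 of 18 settings (-0.02 without BA1). Of Cyp26a1, 79 UMIs were counted in dural cells, all in BA2.

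Between endothelial-like cells 2 of 17 listed genes were called, both lower in CSA (6.80% of all genes tested were called, 4.70% lower). They were Rbp7, a cellular retinol-binding protein (1.6, 40.3, 2.7 and 0 CPM against 75.4 and 119, -2.60, adjusted p = 0.00313), and Ttr, which carries Rbp4 in plasma (-1.93 ± 0.36, adjusted p = 0.000901). The Rbp7 call was lost with DESeq2 (adjusted p = 0.423) and without BA2 (adjusted p = 0.107), and the log2 fold change was -6.36 without CSA2. Ttr is abundant in choroid plexus-like cells, with a mean of 77829 CPM in CSA and 308853 in the 1 BA library, and the part of free RNA in its other values was not tested. In pericyte-like cells 2 of 20 were called (6.57% of all genes tested were called). Cyp1b1, a P450 that can oxidise retinol, was lower in CSA (27.6, 9.90, 0 and 5.30 against 170 and 134). With 31 UMIs in 496 CSA cells, Cyp1b1 passed the detection filter only through BA, where it is high. Rai14, a retinoic acid-induced gene, was higher (1.34 ± 0.39, adjusted p = 0.0445, edgeR). The Rai14 call was lost in 6 of 11 settings, with DESeq2 and without CSA1, CSA2, CSA3, BA1 or BA2 (adjusted p = 0.389 without BA2). In VSMC-like cells 2 of 18 were called (6.39% of all genes tested were called). They were Ttr and Tgm2, a transglutaminase induced by retinoic acid, at 136 and 99.9 in CSA against 352 and 252 in BA. The Tgm2 call was lost without BA1 (-1.27) and after thinning, and that of Ttr with DESeq2.

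Against the other classes of their preparation, mesenchymal-like cells shared some calls of listed genes. Cyp1b1 was called higher in mesenchymal-like cells in all 5 comparisons, for example by 5.10 on the log2 scale against CSA endothelial-like cells and by 4.34 against CSA pericyte-like cells. Tgm2 was lower against both endothelial-like classes (-5.04 in CSA and -4.29 in BA) and against BA VSMC-like cells (-4.08). In all, 6 of 20 listed genes were higher and 3 lower against CSA endothelial-like cells (13.3% and 13.7% of all genes tested). Against CSA pericyte-like cells 2 and 4 of 20 were (10.6% and 8.93% of all genes), and against choroid plexus-like cells 5 and 5 of 18 (19.8% and 20.2%). Against BA endothelial-like cells 7 were higher and 2 lower of 24 (13.5% and 11.0% of all genes). Against BA VSMC-like cells 5 and 2 of 24 were (15.1% and 10.6%). The same detection filter applied, so these counts are descriptions.

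Genes most like each member were sought by Pearson's r over 27 profiles (log2 of the level plus 1 of each class in each preparation), among 14620 genes with at least 50 UMIs. This is a description over points that share libraries. Aldh1a2 was most like Ptgdr (r = 0.89), Clec3b (0.87) and Osr1 (0.87), and Crabp2 most like Asgr1 (0.95), Cemip (0.94) and Sema3a (0.94). Rbp4 was nearest to Dact2 (0.99) and Cilp (0.99), Aldh1a1 to Lama2 (0.85) and Aldh1a3 to Mamstr (0.93) and Cda (0.91). For Stra6 the nearest was Kl (0.93), for Cyp26b1 Heph (0.95), for Rdh10 Smpd1 (0.86) and for Dhrs3 Snx24 (0.87). Within the set, r was 0.92 between Rbp4 and Crabp2, 0.85 between Aldh1a2 and Rbp4 and 0.83 between Aldh1a2 and Crabp2, and lowest, at 0.05, between Aldh1a3 and Rdh10. Outside mesenchymal-like cells, Rbp4 averaged 0.104 CPM in CSA border macrophage-like cells and had no UMI in the other named classes. Its r values therefore rest on the mesenchymal-like profiles.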

How the data were processed

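Cells had been isolated from the cortical surface or the skull of pooled mice, sorted as viable and run on the 10x Genomics 3′ platform. The labels' extraction text describes papain digestion of ventricular tissue for all 6 libraries, whereas the study's methods describe collagenase and dispase. The authors deposited raw UMI counts per gene and barcode on the mm10 build, from Cell Ranger 6.1.2 per the file headers and Cell Ranger 3 per the submitters' processing notes. Barcode totals were 8408685 to 56169736 UMIs per library over 951 to 5602 barcodes, and 11 barcodes were shared over all pairs of libraries.

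Barcodes with fewer than 500 genes or over 10% mitochondrial UMIs were dropped. Doublets were scored against 2 simulated pairs per cell and removed at 0.8% per 1000 cells. Each preparation was clustered on 2000 variable genes, 30 principal components and 15 neighbours (Leiden, resolution 1.5, mixed clusters split at 1.0) in Python 3.11.15 with scikit-learn 1.9.0 and leidenalg 0.10.2, without the batch integration the study used, so class names were rebuilt. A class needed at least 3 leading markers (a UMI in 20% of the cells of the cluster and 2-fold over the rest). A cluster was left unnamed as mixed where another class also had at least 3, making up at least 50% of its own list. It was also left unnamed where another class held more of its 10 leading genes. So was a cluster with no marker of its class among them and median UMIs over 3-fold below those of its libraries. An exemption for markers shared by myeloid cells, and leaving a motile-cilia cluster unnamed, were set after the data were seen. Naming and clustering left out all retinoid pathway genes.

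UMIs were summed per library and class (at least 10 cells) and tested with edgeR 4.0.16 in R 4.3.3 (TMM, quasi-likelihood, Benjamini-Hochberg over all genes tested). A test over libraries replaced the study's test over cells, with its thresholds (a UMI in over 10% of cells, adjusted p under 0.05, log2 fold change of at least 1.3) retained. DESeq2 1.42.0, other filters, thinned cells and left-out libraries were alternatives. The procedure was tested on simulated data. Intervals are 95% exact binomial and cover counting error only, and a count of 0 was set at 3 counts in bounds. Named were the 9 genes, listed pathway genes called in a comparison and the 3 genes most like each member with at least 50 UMIs. The genes, lists and tests were chosen with earlier results of these data known. Gene positions come from GENCODE M21 (30934 of 31053 symbols and identifiers matched). One listed pathway gene is counted among the calls but is not reported here by name.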

Additional observations from a re-analysis of the deposited data

Results flagged for a closer look

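Dhrs3 in microglia-like cells was higher in CSA2, at 184 CPM, than in the other 3 CSA libraries, which stood between 141 and 148. The gap took 0.837 of the range, just over Dixon's 95% critical value for 4 libraries. This was 1 of 14 groups of 4 libraries examined, and chance gives about 1 such group in 20.

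Some cells that no class claimed held more of a gene than any named class. Rdh10 stood at 50.8 CPM (15 UMIs) in 14 CSA cells led by Ccdc153, Stoml3 and Tmem212, genes of motile cilia, against 41.2 in the highest named class, and 13 of these cells came from CSA2. Rbp4 stood at 36.1 (17 UMIs) in 23 CSA cells led by Inmt, Moxd1 and Fgfbp1, which had leading markers of both mesenchymal and border macrophage cells, against 20.0 in the highest named class. In 29 BA cells led by Nts, Actg2 and Adamdec1, Rbp4 stood at 50.9 (24 UMIs, 23 of them from BA1) and Cyp26b1 at 202 (95 UMIs, in 18 of the 29 cells), against 95.5 for Cyp26b1 in the highest named class. All these levels pool the cells of a cluster over libraries. None of these differences was tested.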

How the results depend on the processing

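Over the 37 tests of the set's genes, 284 of 295 alternative values stayed on the same side of the threshold with the same direction, as did 323 of 384 for the 52 calls of pathway genes (those not called are left out). The direction turned for Dhrs3 between leptomeningeal and dural cells without BA2 (0.064, with -1.32 and a call without BA1, the range over left-out libraries), and with cells thinned to 1500 UMIs for dural against endothelial-like (0.45) and VSMC-like cells (0.75), and for Fabp5 without the Apod-led cluster (0.0042). The cause was not tested. Thinning, which tests fewer genes, moved the calls over all genes from 1293 to 570 between mesenchymal-like cells, from 526 to 268 between endothelial-like, from 485 to 206 between pericyte-like and from 532 to 131 between VSMC-like cells. Against CSA endothelial-like, pericyte-like and choroid plexus-like cells it moved them from 2276 to 1084, 1563 to 810 and 3433 to 1141, and against BA endothelial-like and VSMC-like cells from 2431 to 1013 and 2515 to 1052. No detection filter gave 907 calls between endothelial-like cells, and DESeq2 gave 1120 against choroid plexus-like and 1546 against BA VSMC-like cells. Leaving out 1 library gave 1023 to 1527, 395 to 564, 288 to 532 (288 without BA2) and 460 to 563 calls between preparations, and 2224 to 2291 and 1549 to 1569 against CSA endothelial-like and pericyte-like cells. The remaining 3 comparisons had no residual degrees of freedom then. CSA and BA libraries share only numbers. With the replicate number as a block the calls between preparations were 1132, 488, 474 and 570. Leaving out CSA3 and CSA4, single clusters or hemoglobin genes was chosen after seeing the data. The number of the 9 genes highest in a mesenchymal-like class was 6, and 5 with UMIs pooled or at least 1000 genes per cell. The 95% interval of the share in leptomeningeal cells lay above that in CSA T or NK-like cells for 8 of 9 genes, and for 6 after thinning. Dural cells were not counted in this way. Neither this number nor that of genes highest in a mesenchymal-like class was taken over all genes. Both are therefore descriptions and no result about the set. Depth limits Aldh1a3, Rbp4 and Stra6, with 143, 179 and 198 UMIs in all.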

Other observations

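Among pathway genes outside the set, Rdh5, Rarb and Adh1 stood higher in some other class than in leptomeningeal cells. Rdh5, a retinol dehydrogenase, averaged 317 CPM in CSA choroid plexus-like and 102 in CSA pericyte-like cells. Rarb averaged 65.6 in CSA pericyte-like cells, above the 27.1 to 49.2 of the leptomeningeal libraries. Adh1, an alcohol dehydrogenase that can oxidise retinol, averaged 26.8 in CSA endothelial-like cells and had no UMI in leptomeningeal cells. Crabp1, the other retinoic acid carrier of this family, was counted in dural cells of BA1 alone, at 55.0 and 0 CPM in BA1 and BA2.

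In BA the Clec9a-led dendritic cluster held Aldh1a2 at 13.6 CPM with its cells pooled, and the Schwann-like cluster with Cdh19 among its leading genes held Aldh1a1 at 159. The 23 unnamed CSA cells led by Inmt, Moxd1 and Fgfbp1 held Aldh1a2 at 140, Aldh1a1 at 74.3 and Crabp2 at 70.1.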
